A study of Bos taurus with 20 samples.

Results

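Haptoglobin (HP), lipopolysaccharide binding protein (LBP), ceruloplasmin (CP) and the zinc importer SLC39A14 are represented by 6 of the 24128 probe sets of the Affymetrix Bovine Genome Array. They are Bt.12553.1.S1_at for HP, Bt.24181.1.S1_at for LBP, Bt.12610.1.A1_at, Bt.22390.2.S1_at and Bt.22390.3.A1_at for CP, and Bt.10001.1.A1_at for SLC39A14. All probe sets that the array's annotation gives to these 4 genes were taken. The genes themselves were chosen by their measured differences between untreated challenged glands and the other glands, so those differences are given below as a description and no test of them is used.

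RNA was measured in mammary tissue from 20 glands of 5 midlactating Holstein Friesian cows, 1 array per gland. In each cow 3 glands were challenged with 100 cfu of Escherichia coli and 1 gland was left as not challenged control (NC). One challenged gland stayed untreated (CNT), one was infused with 300 mg of the cephalosporin antibiotic cefapirin (CF), and one with 300 mg of cefapirin and 20 mg of the glucocorticoid prednisolone (CFPD), first 4 h after challenge and again at 12, 24 and 36 h as far as the cow was still in the trial. Tissue of cows 4 and 5 was taken at 24 h and that of cows 1, 2 and 3 at 48 h post challenge, which gave 2 arrays per group at the earlier and 3 at the later time. Time point and cow therefore cannot be told apart, and the 4 glands of a cow shared 1 circulation. NC was the right front and CNT the left front gland in every cow, so that gland position and group cannot be told apart either. The labels put CFPD in the left rear gland of cows 1 and 4 and in the right rear gland of the other cows. Results for CF and CFPD glands were therefore also computed with these 2 labels exchanged in cows 1 and 4.

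The acute phase response is the change in plasma proteins that follows infection or injury. The liver makes most of these proteins under the control of interleukin 6 and interleukin 1, and in cattle haptoglobin and serum amyloid A rise most steeply. Some are also made within the udder, where mammary epithelium releases serum amyloid A3, haptoglobin and LBP into milk during mastitis. Haptoglobin binds free haemoglobin and so keeps iron from bacteria, LBP hands bacterial lipopolysaccharide to CD14 and the receptor TLR4, ceruloplasmin carries copper and oxidises iron, and SLC39A14 takes up zinc and, in mouse liver, is induced by interleukin 6.

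The samples were of mammary tissue by their markers, with all 7 measured epithelial markers (caseins, alpha-lactalbumin, keratins and butyrophilin) above the median of the array on every array. The mean of 4 neutrophil markers (S100A8, S100A9, S100A12 and CXCR1) was 10.53 to 13.10 on the log2 scale in the 5 CNT glands and 6.56 to 8.11 in the 15 other glands. The mean of 4 monocyte and macrophage markers was 9.29 to 10.61 in CNT and 8.25 to 9.81 in NC glands, higher in the CNT gland of each cow. Of these 4 markers 2 were called higher at 48 h, where 2.15% of all probe sets were, and 0 at 24 h. Of 10 hepatocyte markers, ALB, APOA1, TTR and AHSG were above the median of the array on all 20 arrays, and APOA2, APOH, FGB, SERPINC1 and CYP2E1 on none. The mean over these 10 markers stayed between 6.81 and 7.36 on all arrays. The mean of the epithelial markers was 13.80 to 14.18 in CNT and 14.11 to 14.41 in NC glands, lower in the CNT gland of each cow, and KRT19 and BTN1A1 were called lower at 24 h, with log2 fold changes of -1.31 and -1.28. The median log2 fold change of the 7 epithelial markers was -0.09 at 24 h and -0.31 at 48 h, and 0 were called at 48 h. Neutrophil markers, monocyte and macrophage markers and some epithelial markers thus moved with the CNT group, as did the probe sets described here. The part of these markers in the results was not tested. In bulk tissue, fewer cells of a type and less RNA per cell cannot be told apart.

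HP reached the same high level in every untreated challenged gland. At 24 h the HP values were 7.55 and 6.48 in the NC glands of cows 4 and 5 and 14.06 and 13.43 in their CNT glands. At 48 h they were 9.64, 6.18 and 7.50 in the NC glands of cows 1, 2 and 3 and 13.82, 14.02 and 14.13 in their CNT glands. The CNT values spanned less than 1 log2 unit over all 5 cows, whereas the NC values spanned 6.18 to 9.64, with the highest in cow 1. The difference between CNT and NC glands was 6.73 (SE 1.10) at 24 h, a 106-fold difference, and 6.22 (SE 1.15) at 48 h.

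In treated glands HP lay between these levels, with a wide spread from cow to cow. CF glands had HP values of 9.19 and 6.01 at 24 h in cows 4 and 5, and of 11.49, 8.88 and 9.67 at 48 h in cows 1, 2 and 3. CFPD glands had HP values of 9.93 and 7.66 at 24 h and of 11.46, 10.95 and 6.90 at 48 h in the same order of cows. Every treated gland was below the CNT gland of its own cow, and 8 of 10 were above the NC gland of their own cow. The 2 exceptions were the CF gland of cow 5, 0.47 below its NC gland, and the CFPD gland of cow 3, 0.60 below. How many of all probe sets had such counts is not given here. By group means the order at 24 h was NC 7.01, CF 7.60, CFPD 8.80 and CNT 13.75, where the CF range overlapped with those of NC and CFPD glands and the NC and CFPD ranges did not overlap. At 48 h the order was NC 7.77, CFPD 9.77, CF 10.01 and CNT 13.99, and only CNT stood apart.

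**Figure D1:**
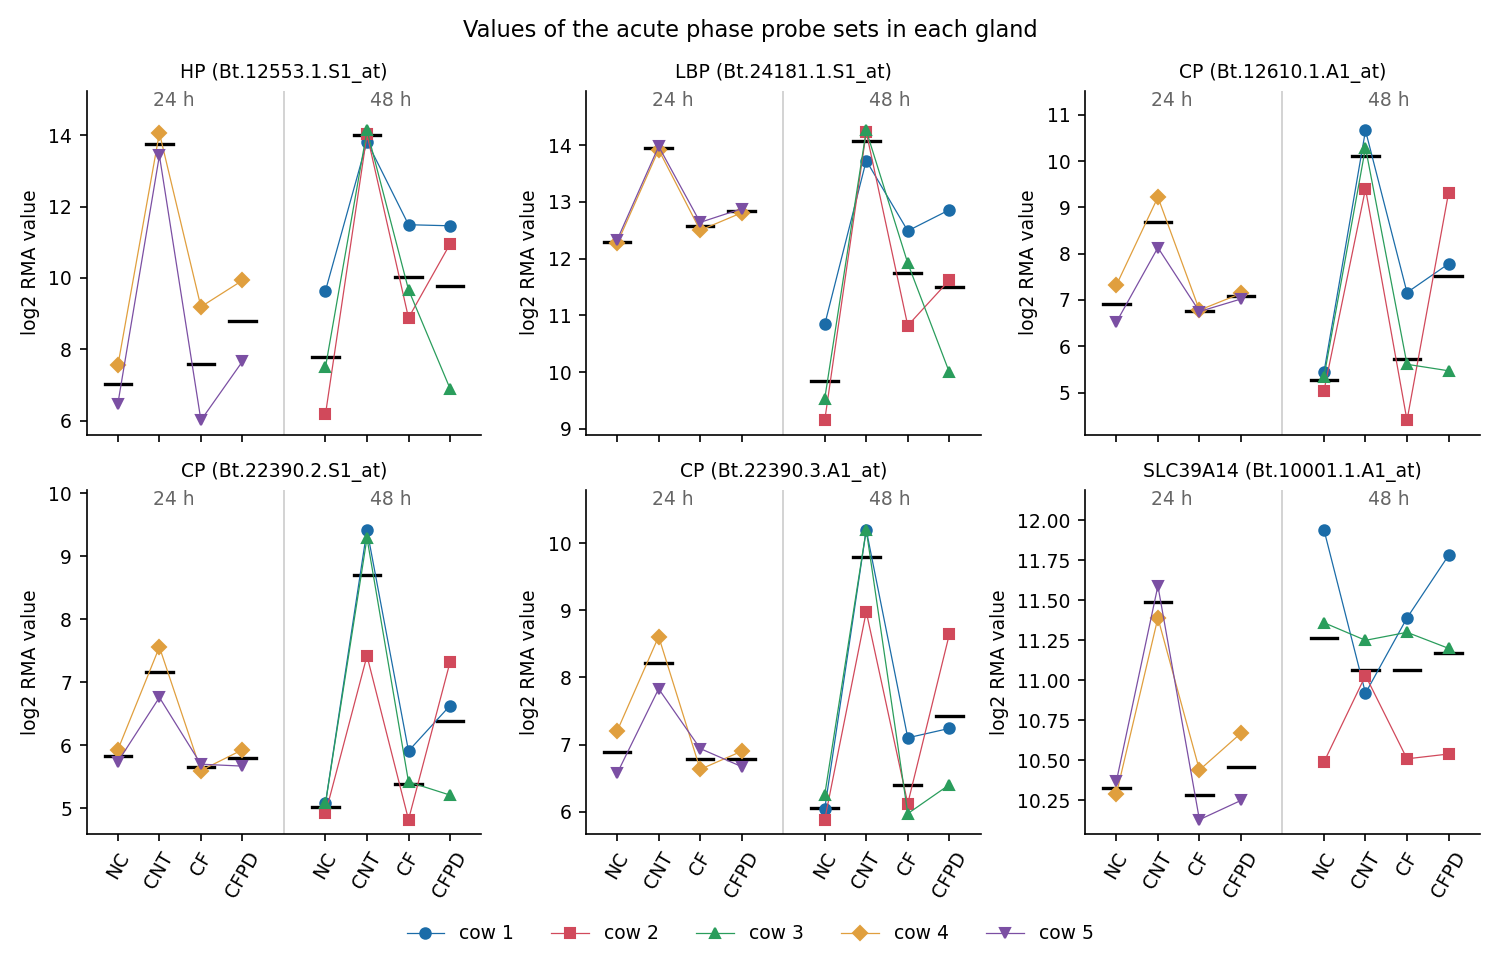
The y axis gives the log2 RMA value of each of the 6 probe sets and the x axis the group at 24 h and at 48 h. Each point is 1 gland, a line joins the 4 glands of a cow, and black bars are group means. CNT glands are the highest of their time point for HP and LBP, with HP at 13.43 to 14.13, while the CFPD gland of cow 2 reached 9.31 for CP (Bt.12610.1.A1_at).

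LBP also had its highest value in the CNT gland of each cow, and it differed between the time points in unchallenged glands. At 24 h the LBP values of cows 4 and 5 were 12.27 and 12.33 in NC, 13.92 and 13.98 in CNT, 12.50 and 12.64 in CF, and 12.81 and 12.88 in CFPD glands. At 48 h those of cows 1, 2 and 3 were 10.84, 9.15 and 9.53 in NC, 13.73, 14.23 and 14.26 in CNT, 12.49, 10.82 and 11.92 in CF, and 12.86, 11.62 and 10 in CFPD glands. CNT glands were alike at both times, whereas both NC glands of 24 h were above all 3 NC glands of 48 h. The difference between CNT and NC glands was 1.65 (SE 0.14) at 24 h and 4.23 (SE 0.66) at 48 h, and the lower NC values account arithmetically for nearly all of this gap, since the CNT means were 13.95 and 14.07. At 24 h the 4 groups followed the order NC, CF, CFPD and CNT with no overlap between neighbours. With 2 glands per group this order is a description, and the share of all probe sets that follow it is not given here. At 48 h the CFPD range of 10 to 12.86 spanned the CF range of 10.82 to 12.49 and reached into the NC range of 9.15 to 10.84.

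LBP was above the NC gland of the same cow in 10 of 10 treated glands, by 0.23 to 2.47. Of 13873 probe sets, 0.418% were higher in every treated gland than in the NC gland of its cow. This count does not depend on which treated gland received prednisolone. The NC arrays entered the choice of LBP, and both treated glands of a cow were set against the same NC gland. Count and share are therefore a description and not a test. CF glands exceeded their NC gland by 0.23 and 0.31 at 24 h in cows 4 and 5, and by 1.65, 1.68 and 2.40 at 48 h in cows 1, 2 and 3. CFPD glands exceeded it by 0.54 and 0.55 at 24 h and by 2.01, 2.47 and 0.47 at 48 h. The differences were thus larger in 5 of 6 treated glands of 48 h than in any treated gland of 24 h, and the CFPD gland of cow 3 was the exception. The LBP level of treated glands was not higher at 48 h. From 24 h to 48 h, in different cows, the mean went from 12.57 to 11.75 in CF and from 12.85 to 11.49 in CFPD glands. In NC glands it went from 12.30 to 9.84, so the larger differences go with lower NC values.

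The contrasts of treated with NC glands did not themselves serve to choose the genes, but the arrays of both entered the choice through their differences from CNT glands. These contrasts were tested with limma over all probe sets that passed the filter. Their p-values and intervals are therefore not independent of the choice. In CF against NC glands at 48 h, LBP was 1.91 higher (SE 0.66, 95% confidence interval 0.45 to 3.37, unadjusted p = 0.0147, Benjamini-Hochberg adjusted p = 1), in 3 of 3 cows. In CFPD against NC glands, LBP was 0.55 higher at 24 h (SE 0.14, interval 0.21 to 0.88, adjusted p = 1) in 2 of 2 cows, and 1.65 higher at 48 h (SE 0.66, interval 0.20 to 3.11, adjusted p = 1) in 3 of 3 cows. HP differed from NC by 2.24 (SE 1.15) in CF and 2.00 (SE 1.15) in CFPD glands at 48 h, and by 0.59 (SE 1.10) and 1.78 (SE 1.10) at 24 h, each with adjusted p = 1. Without single cows or arrays these 4 HP values ranged from 1.44 to 3.17 (without the NC array of cow 2 and of cow 1), 0.61 to 3.43 (without cow 2, and without the CFPD array of cow 3), -1 to 2.18 (without the CF array of cow 4 and of cow 5) and 0.65 to 2.92 (without the CFPD array of cow 4 and of cow 5). For LBP in CFPD glands at 48 h the range was 0.97 to 2.40, without the CFPD array of cow 1 and of cow 3. A probe set was called where its adjusted p was below 0.05 and its groups differed at least 2-fold. By this rule 0 member probe sets were called in CF against NC glands at 24 h, where 0% of 13004 probe sets were called and 106 had an unadjusted p under 0.05, and 0 in CFPD against NC glands at 24 h, again against 0%, where 258 had an unadjusted p under 0.05. At 48 h the counts were likewise 0 for CF and 0 for CFPD, against 0% and 0% of 13000 probe sets, of which 82 and 43 had an unadjusted p under 0.05.

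Both treatments were then pooled over the 2 time points, a comparison added after the values had been seen. LBP was 1.09 higher in treated than in NC glands (SE 0.39, interval 0.27 to 1.92, unadjusted p = 0.0129, adjusted p = 0.999), with mean differences of 1.83, 2.08, 1.43, 0.39 and 0.43 in cows 1 to 5. HP was 1.65 higher (SE 0.79, interval -0.02 to 3.33, adjusted p = 0.999), in 5 of 5 cows by the mean of both treated glands. With the cow as a block, the LBP difference had an SE of 0.33 and the HP difference an SE of 0.60, both still with adjusted p = 0.999. Of 13873 probe sets 0% were called and 89 had an unadjusted p under 0.05.

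**Figure D2:**
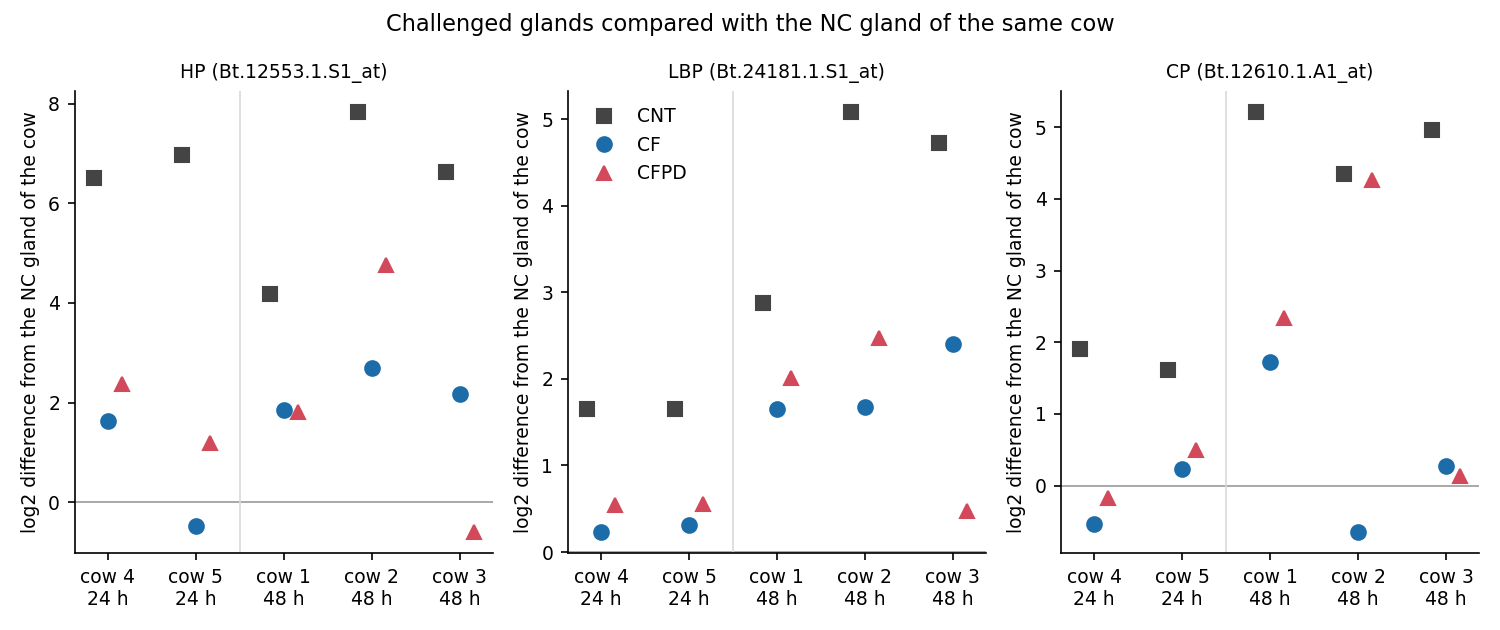
The y axis gives the log2 difference of a challenged gland from the NC gland of the same cow and the x axis the cow with its time point; squares are CNT, circles CF and triangles CFPD glands. For LBP all 10 treated glands lie above 0, and for CP (Bt.12610.1.A1_at) the CFPD gland of cow 2, at 4.27, lies beside the CNT gland of that cow.

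The 3 probe sets of CP gave 1 pattern. The study's tables name Bt.12610.1.A1_at IL12A, the gene of a subunit of the cytokine interleukin 12, whereas the array's annotation gives it to CP. The study also measured IL12A by qPCR and described the results as in conflict with its arrays at both times. At 48 h its qPCR showed no differential regulation of IL12A against CNT glands. Over the 20 arrays the log2 values of Bt.12610.1.A1_at correlated with those of Bt.22390.2.S1_at and Bt.22390.3.A1_at with r = 0.96 and 0.96. After the group means were removed r was 0.87 and 0.90. Without the CNT glands, over 15 arrays, r was 0.97 and 0.93. With the probe set annotated IL12A (Bt.524.1.S1_at), r was -0.45, and it was -0.26 with group means removed and -0.19 without CNT glands. That probe set stayed between 4.77 and 5.84 on all arrays and exceeded the median of the array on 0 of them. At such low values r cannot tell whether the transcripts vary together. The probe set of IL12B (Bt.523.1.S1_at), the other subunit, stayed between 4.37 and 5.53 and also exceeded the median on 0 arrays. These correlations describe arrays that share cows and groups.

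**Figure D3:**
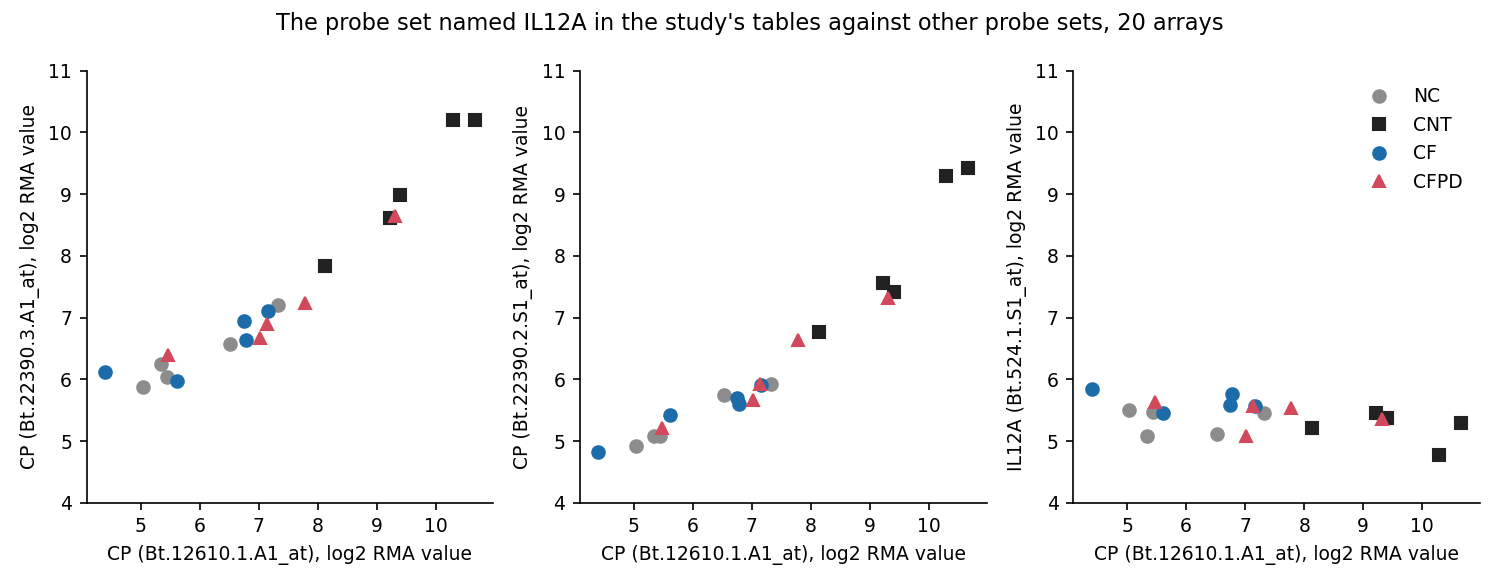
Each point is 1 of the 20 arrays; the x axis gives the log2 RMA value of Bt.12610.1.A1_at and the y axes those of the other CP probe sets and of the probe set annotated IL12A. The CP probe sets rise together (r = 0.96 with each), while the IL12A probe set lies between 4.77 and 5.84 throughout.

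CP values were higher in CNT glands, and more so at 48 h. For Bt.12610.1.A1_at the values of cows 4 and 5 at 24 h were 7.32 and 6.52 in NC, 9.22 and 8.13 in CNT, 6.78 and 6.75 in CF, and 7.14 and 7.02 in CFPD glands. At 48 h those of cows 1, 2 and 3 were 5.44, 5.04 and 5.34 in NC, 10.66, 9.40 and 10.29 in CNT, 7.16, 4.40 and 5.61 in CF, and 7.78, 9.31 and 5.47 in CFPD glands. At 24 h only the CNT glands stood apart, and at 48 h the CFPD gland of cow 2 was within 0.1 of the CNT gland of that cow. The differences between CNT and NC glands for the 3 probe sets at 48 h were 4.84 (SE 0.85), 3.69 (SE 0.57) and 3.74 (SE 0.52), in the order in which they are named above. At 24 h they were 1.75 (SE 0.38) for Bt.12610.1.A1_at and 1.33 (SE 0.31) for Bt.22390.3.A1_at, and Bt.22390.2.S1_at did not pass the filter on low values there.

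The CFPD gland of cow 2 held high values of all 3 CP probe sets. Against the CF gland of the same cow it was higher by 4.92, 2.50 and 2.51, and against the NC gland by 4.27, 2.40 and 2.76. In the other 4 cows the CFPD and CF glands differed by at most 0.72 in size for any CP probe set. In that gland HP was 2.07 and LBP 0.79 above the CF gland, and SLC39A14 0.04 above it. The mean of the neutrophil markers was 7.75 there, against 10.64 in the CNT, 7.02 in the CF and 6.56 in the NC gland of the cow, and the part of neutrophils in the CP values was not tested. In cow 3 the order was turned for HP and LBP: the CFPD gland was 2.77 below the CF gland for HP and 1.93 below it for LBP, and lay closer to the NC than to the CNT gland for HP, LBP and CP. The labels of cows 2 and 3 are not among those exchanged.

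In CFPD against NC glands at 48 h the CP probe sets were higher by 2.25 (SE 0.85, interval 0.38 to 4.12), 1.36 (SE 0.57, interval 0.10 to 2.62) and 1.37 (SE 0.52, interval 0.24 to 2.50), in 3 of 3 cows and each with adjusted p = 1. These means rest on cows 1 and 2, since the differences in cow 3 were 0.14, 0.13 and 0.16. Without cow 2 the first of them was 1.24 and the third 0.68. In CF against NC glands at 48 h the CP probe sets differed by 0.45, 0.36 and 0.34 (SE 0.85, 0.57 and 0.52), each in 2 of 3 cows and with adjusted p = 1. All CF and NC glands of 48 h were below the median of the array for the 3 CP probe sets, which passed the filter through the CNT glands and 1 or 2 CFPD glands. At 24 h the CP differences of treated from NC glands were between -0.18 and 0.16.

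For SLC39A14 the CNT glands were higher than the NC glands at 24 h and overlapped with them at 48 h. At 24 h the SLC39A14 values of cows 4 and 5 were 10.29 and 10.37 in NC, 11.39 and 11.59 in CNT, 10.44 and 10.13 in CF, and 10.67 and 10.25 in CFPD glands. At 48 h those of cows 1, 2 and 3 were 11.94, 10.49 and 11.36 in NC, 10.92, 11.03 and 11.25 in CNT, 11.39, 10.51 and 11.30 in CF, and 11.78, 10.54 and 11.20 in CFPD glands. The CNT glands stood apart at 24 h, and at 48 h the groups overlapped while the cows differed, with cow 1 highest in 3 of its 4 glands and cow 2 lowest in 3 of its 4. The difference between CNT and NC glands was 1.16 (SE 0.20) at 24 h and -0.20 (SE 0.39) at 48 h. At 48 h it was -1.03 in cow 1, 0.55 in cow 2 and -0.11 in cow 3. Treated glands differed from NC glands by -0.19 to 0.13 at either time, with adjusted p = 1.

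As a description of the comparisons by which the genes were chosen, 3 of the 5 member probe sets that passed the filter at 24 h (HP, LBP and SLC39A14) were called higher in CNT than in NC glands, where 1.62% of all probe sets tested were called higher and 0.769% lower. At 48 h 5 of 6 were called (all but SLC39A14), against 2.15% higher and 0.515% lower. With the cow as a block the first count was 5 of 5, against 3.98% of all probe sets called higher, and the second stayed at 5, against 3.87%. Without cow 2 or without cow 3 the count at 48 h was 0, and without cow 1 it was 2. At 24 h it was 0 without cow 4 and 0 without cow 5. Over all probe sets, 0 were called higher without cow 2, without cow 3 and without cow 5, 84 without cow 1 and 69 without cow 4. Against CNT glands at 24 h, 3 were called lower in CF glands (HP, LBP and SLC39A14), where 1.59% of all were, and 1 in CFPD glands (LBP), where 1.04% were. At 48 h 3 were called lower in CF glands (the CP probe sets), against 1.5%, and 1 in CFPD glands (Bt.22390.3.A1_at), against 1.05%. With the block these 4 counts were 5, 5, 5 and 4, against 4.16%, 3.49%, 3.23% and 2.37% of all probe sets. With the labels of cows 1 and 4 exchanged and no block they were 1, 3, 3 and 0. Without any 1 cow of the time point, and with no block, they were 0.

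The size of these differences can be given without the calls. In CF glands at 24 h the difference from CNT glands was -6.15 (SE 1.10) for HP and -1.38 (SE 0.14) for LBP, and in CFPD glands -4.95 and -1.10. At 48 h it was -3.98 (SE 1.15) in CF and -4.22 in CFPD glands for HP, and -2.33 (SE 0.66) and -2.58 for LBP. For Bt.12610.1.A1_at it was -4.40 (SE 0.85) in CF and -2.60 in CFPD glands at 48 h. All 10 treated glands were below the CNT gland of their cow for HP, LBP and each CP probe set, and 7 of 10 for SLC39A14. The genes were chosen by their differences from CNT glands, so these counts are a description. The share of all probe sets with such counts is not given here.

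The challenge response at 48 h was set beside that at 24 h in 1 fit of all 20 arrays. Since the genes were chosen on these differences, the values are a description. The difference between CNT and NC glands was larger at 48 h by 2.58 for LBP (SE 0.90) and by 3.09, 2.36 and 2.40 for the CP probe sets (SE 1.20, 0.80 and 0.74). For SLC39A14 it was smaller at 48 h, at -1.36 (SE 0.54), and for HP it was -0.51 (SE 1.82). Over all 13873 probe sets 0% were called in this comparison and 1077 had an unadjusted p under 0.05. With the cow as a block 0.195% were called. For CP and SLC39A14 NC levels differed too, in glands of different cows. From 24 h to 48 h the Bt.12610.1.A1_at mean went from 6.92 to 5.27 in NC glands. In CNT glands it went from 8.68 to 10.12. The other CP probe sets likewise had lower NC and higher CNT means at the later time. For SLC39A14 the NC mean went from 10.33 to 11.26 and the CNT mean from 11.49 to 11.06. The part of the NC levels was not tested.

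Addition of prednisolone was examined by comparing CFPD with CF glands over all 5 cows. The differences were 0.48 for HP (SE 0.91, interval -1.46 to 2.41), 0.01 for LBP (SE 0.45, interval -0.95 to 0.97) and 0.14 for SLC39A14 (SE 0.27, interval -0.44 to 0.72). For the CP probe sets they were 1.06 (SE 0.60, interval -0.21 to 2.33), 0.57 (SE 0.40, interval -0.28 to 1.42) and 0.51 (SE 0.37, interval -0.28 to 1.30). Every adjusted p was 1, and 0% of 13873 probe sets were called, with 42 at an unadjusted p under 0.05. By cow, LBP was higher in the CFPD than in the CF gland by 0.36, 0.79, 0.31 and 0.25 in cows 1, 2, 4 and 5 and lower by 1.93 in cow 3. HP was higher by 2.07, 0.74 and 1.65 in cows 2, 4 and 5, lower by 0.04 in cow 1 and lower by 2.77 in cow 3. Without cow 2 the difference of Bt.12610.1.A1_at was 0.28. At each time point alone 0 member probe sets were called, against 0% of 13004 at 24 h and 0% of 13000 at 48 h, with 67 and 21 at an unadjusted p under 0.05. With the labels of cows 1 and 4 exchanged the difference over all cows was 0.12 for HP, -0.26 for LBP, -0.10 for SLC39A14 and 0.67, 0.17 and 0.33 for the CP probe sets, and no call was made. The intervals include 2-fold differences in either direction for HP, and for the CP probe sets in the direction of higher CFPD values.

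Other acute phase genes were taken from a list of 42 proteins whose plasma level rises, of which 27 were on the array. Of the 20 that passed the filter at 24 h, 5 were called higher in CNT than in NC glands, and of 19 at 48 h, 4 were. The shares over all probe sets tested were 1.62% and 2.15%. None of the list was called lower at either time. Here and below, genes of the lists said to rise or fall were called. Without any 1 cow of a time point 0 of the list were called. The median log2 fold change of the list was 0.37 at 24 h and 0.42 at 48 h, against -0.01 and 0.13 over all probe sets tested. SAA3, the serum amyloid A of the mammary gland, rose at 24 h by 4.56 (SE 0.72, adjusted p = 0.0312) and differed by 3.78 (SE 1.08, adjusted p = 0.0692) at 48 h. CFB, factor B of the alternative complement pathway, rose by 3.88 (SE 0.21) at 24 h and 3.69 (SE 0.91) at 48 h. SERPINA3-7, a bovine serpin related to antichymotrypsin, rose by 1.56 (SE 0.15) and 1.55 (SE 0.21).

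The other called genes of this list were called at 1 time point each. PTX3, a pentraxin made by inflamed tissue, and TNFAIP6, which binds hyaluronan, rose at 24 h by 2.87 (SE 0.37, adjusted p = 0.022) and 2.34 (SE 0.44, adjusted p = 0.0459). PTX3 differed by 0.25 (SE 1.04) at 48 h, and TNFAIP6 did not pass the filter there. C4BPA, a subunit of a complement inhibitor, differed by 1.26 (SE 0.44, adjusted p = 0.168) at 24 h and rose by 4.29 (SE 1.05, adjusted p = 0.0462) at 48 h. Its NC means were 10.62 at 24 h and 7.90 at 48 h, so that, as with LBP, the NC glands of 24 h were the higher ones. FN1, the fibronectin gene, differed by 2.13 (SE 0.57, adjusted p = 0.0973) at 24 h and rose by 1.77 (SE 0.35, adjusted p = 0.0212) at 48 h. FGG, SERPINA1 and C3, of the clotting and complement cascades and their inhibitors, had differences of 0.07 to 0.65 and were not called.

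In treated glands 5 genes of the list fell in CF and 3 in CFPD against CNT glands at 24 h, and 2 and 1 at 48 h. Of all probe sets tested, 1.59%, 1.04%, 1.5% and 1.05% were called lower in these comparisons. SERPINA3-7 fell in all 4 of these comparisons, by 1.46, 1.54, 1.15 and 1.28. CFB fell by 4.36 in CF and 3.98 in CFPD glands at 24 h. None of the list was called between treated and NC glands, or between CFPD and CF glands over both times. In these comparisons 0% of all probe sets were called, so this does not show that the list was back at the NC level. Of 4 genes measured at each time among those of plasma proteins that fall in the acute phase, 0 were called, and ALB (albumin) and TTR (transthyretin) differed between CNT and NC glands by -0.10 and -0.21 at 24 h and by -0.44 and 0.78 at 48 h.

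**Figure D4:**
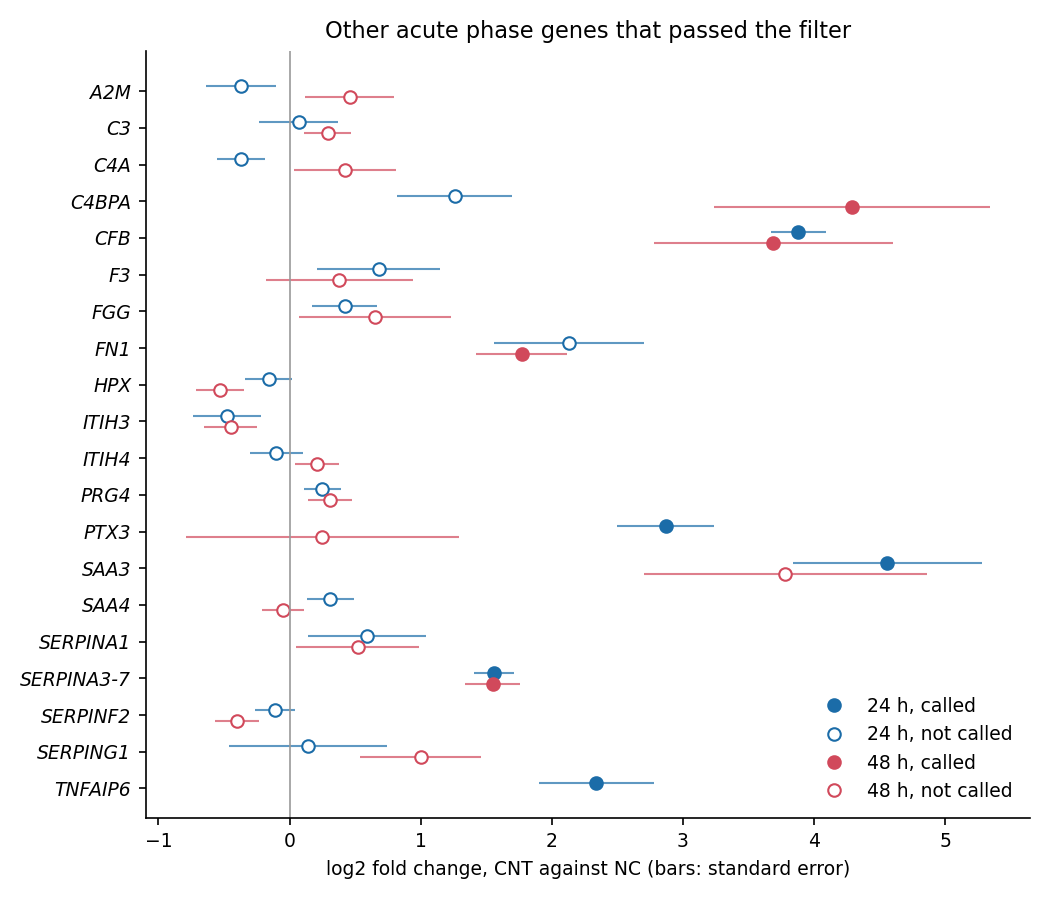
The x axis gives the log2 ratio of CNT to NC glands with its standard error and the y axis the genes of the acute phase list that passed the filter; blue is 24 h, red 48 h and filled points were called. CFB and SERPINA3-7 are filled at both times, SAA3 lies at 4.56 and 3.78, and C4BPA at 1.26 and 4.29.

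The genes that act upstream and beside the members were called in small part. The shares of all probe sets called higher in CNT glands were 1.62% (24 h) and 2.15% (48 h), and the medians over all were -0.01 and 0.13. Of 13 genes of the interleukin 6 signal at 24 h, 2 rose in CNT against NC glands, and of 12 at 48 h, 1 rose. SOCS3, a feedback inhibitor of the signal, rose by 2.69 (SE 0.43, adjusted p = 0.0317) and IL6R, the receptor, by 2.13 (SE 0.34, adjusted p = 0.0312) at 24 h. STAT3, the transcription factor of the signal, rose by 1.25 (SE 0.26, adjusted p = 0.0241) at 48 h. The list's medians were 0.61 and 0.43. Of 11 genes of lipopolysaccharide recognition, to which LBP belongs, 1 rose at each time: SCARB1, a lipoprotein receptor, at 24 h by 1.02 (SE 0.19), and ITGB2, the integrin chain of leukocytes, at 48 h by 1.48 (SE 0.25). CD14, the partner of LBP, differed by 1.63 and 0.10 and TLR4 by 0.55 and 0.66, and neither was called. The medians were 0.53 and 0.14. Without cow 4 there was 1 call in the lipopolysaccharide list at 24 h and without cow 1 there was 1 in the interleukin 6 list at 48 h. Leaving out any other cow, or these cows for the other list, left 0 called higher in both lists.

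Genes of iron, copper and zinc handling, the fields of HP, CP and SLC39A14, were called in part. Of all probe sets tested, 1.62% (24 h) and 2.15% (48 h) were called higher in CNT than in NC glands. The median log2 fold changes over all probe sets tested were -0.01 and 0.13. Of 13 genes of haemoglobin and iron handling 3 rose at each time, with medians of 0.39 and 0.65. SLC11A1, a metal transporter of phagosomes, rose by 2.98 (SE 0.54) and 2.40 (SE 0.41), and STEAP3, a ferrireductase, by 1.04 (SE 0.15) and 1.03 (SE 0.24). SLC11A2, an iron importer, rose by 1.34 (SE 0.19) at 24 h, and HMOX1, which breaks down haem, by 1.94 (SE 0.43) at 48 h. Of 10 copper genes 1 rose at each time, the metallothionein MT1A, by 2.67 (SE 0.35) and 2.45 (SE 0.57), with medians of 0.12 and 0.07. Of the zinc transporters and metallothioneins 2 of 18 rose at 24 h and 1 of 16 at 48 h, with medians of 0.15 and 0.07. Beside MT1A this was SLC39A2, a zinc importer like SLC39A14, by 3.28 (SE 0.46) at 24 h. Without any 1 cow of a time point 0 genes of these 3 lists were called higher.

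Of 9 targets of glucocorticoids measured at each time 0 were called between CNT and NC glands. Of all probe sets 1.62% (24 h) and 2.15% (48 h) were called higher there. The median log2 fold change of the targets was 0.35 at 24 h and 1.02 at 48 h, against -0.01 and 0.13 over all probe sets tested. Of 10 targets measured over both times 0 were called between CFPD and CF glands, where 0% of all were. Their median was 0.11 there, against 0.01. MT2A and DUSP1, the targets with the highest mean, differed between CFPD and CF glands by 0.38 and 0.16. Of the interleukin 12 list 1 gene passed the filter, EBI3, with differences of -0.40 and -0.37 between CNT and NC glands.

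The probe sets most like each gene over the 20 arrays were named from 8889 candidates by Pearson's r, as a description of arrays that share cows and groups. For HP they were those of SAA3 (r = 0.951), CFB (0.930), PDCD4 (0.924), PLAU (0.906) and UGDH (0.904). For LBP they were those of SOD2, the mitochondrial superoxide dismutase (r = 0.948), C4BPA (0.923), CTSC (0.915), PISD (0.913) and ZPR1 (0.911). For CP, by Bt.22390.3.A1_at, they were those of S100A2 (0.899), THEM4 (0.879), RUVBL2 (0.875), ECM1 (0.872) and VAMP5 (0.867). No gene was among the 5 of more than 1 member. After group means were removed r was 0.92 for HP with SAA3 and 0.96 for LBP with SOD2, against 0.66 for CP with S100A2. For SLC39A14 the highest were ALG14 (0.821), GSK3B (0.817), ATG5 (0.816), MEMO1 (0.806) and TRMT11 (0.806). Among the members r was 0.72 for HP with LBP, 0.78 to 0.80 for HP with the CP probe sets, 0.53 for HP with SLC39A14 and 0.07 for LBP with SLC39A14. With group means removed r was 0.78 for HP with LBP, 0.49 to 0.68 for HP with the CP probe sets, 0.53 for HP with SLC39A14 and 0.64 for LBP with SLC39A14, and without CNT glands the last was -0.22.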

How the data were processed

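As deposited, each value was a log2 signal per probe set, made by the authors from the scans with RMA (affy in Bioconductor). Its version is not given in the sources used here, nor whether the arrays of 24 h and 48 h were normalized in 1 run. Precision is limited by the number of arrays. The table holds 24128 probe sets, 112 of them controls, and 13318 have 1 gene symbol, 86 several and 10724 none in the array's annotation. Symbols of 13283 were looked up by gene ID in RefSeq and none differed. Group, cow and time came from the sample labels, with cows renumbered.

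Probe sets were kept, controls apart, where at least 2 arrays (24 h, or all arrays) or 3 arrays (48 h) exceeded the array median, which left 13004 at 24 h, 13000 at 48 h and 13873 overall. At each time point 1 model over the 4 groups was fitted with limma 3.58.1 in R 4.3.3, p-values adjusted by Benjamini and Hochberg over all probe sets tested, and called where the adjusted p was below 0.05 and the groups differed at least 2-fold. The study's methods name limma and no cow term, so the cow as a block is an alternative. Arrays with the same cow number came from the same animal, and their deviations from group means correlated with a mean r of 0.52 at 24 h (0.33 to 0.71) and 0.45 at 48 h (0.06 to 0.84). P-values measure the spread between glands of these 5 cows.

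The members, the gene lists and the tests were chosen with earlier results of these data known. A gene of a list is represented by its probe set with the highest mean. From each list up to 4 called genes were named, by the size of the change at 48 h, or the 2 with the highest mean where none was called, and for each member the 5 most alike genes. SERPINA3-7, PTX3, TNFAIP6, CD14, TLR4, FGG, SERPINA1 and C3 were named in addition, after their values had been seen. The fits were tested on simulated data. Alternatives tried were a block for the cow (fixed, random), 1 fit of all arrays, no filter, a robust and trended prior, centring on medians, quantile normalization, exchanged labels, adjusted p alone, another probe set per gene, and leaving out each cow or array. The exchange together with the block was added after the data had been seen.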

Additional observations from a re-analysis of the deposited data

Results flagged for a closer look

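The CP probe set Bt.22390.2.S1_at had CFPD minus NC differences of opposite sign at the 2 time points, which is why it is listed here. The mean difference was -0.04 at 24 h, within 0.1 of 0 in both cows, and 1.36 at 48 h, with higher values in all 3 cows. The values at 24 h lie within the spread between glands, and the difference between the time points was not tested. This probe set did not pass the filter at 24 h, where it exceeded the median of the array on 1 of 8 arrays.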

How the results depend on the processing

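With the cow as a fixed replicate block, member probe sets called at 24 h were 5 in CNT against NC, 5 in CF against CNT and 5 in CFPD against CNT glands, and at 48 h 5 in CF and 4 in CFPD against CNT glands. The random block gave the same member counts, as did the fixed block with exchanged labels. The fixed block left the 5 called in CNT against NC glands at 48 h and gave 7 genes of the acute phase list at 24 h and 6 at 48 h. In 1 fit of all 20 arrays the counts at 24 h were 1, 1 and 0, and 3 in CFPD against CNT glands at 48 h. That last count was 0 with a trended and robust prior, with median centring, with quantile normalization and with the labels of cows 1 and 4 exchanged. The exchange gave 1 in CF and 3 in CFPD against CNT glands at 24 h. Genes of the acute phase list called higher at 48 h numbered 2 with median centring and 2 with quantile normalization.

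Leaving out a cow or an array gave 0 to 1 called in each of the 3 comparisons with CNT glands at 24 h. At 48 h it gave 0 to 5 in CNT against NC, 0 to 3 in CF against CNT and 0 to 2 in CFPD against CNT glands. The acute phase list gave 0 to 1 at 24 h and 0 to 2 at 48 h. In the comparisons of treated glands with NC glands or each other no member was called under any alternative.

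Some values changed sign. Exchanged labels gave 0.02 for Bt.12610.1.A1_at, 0.04 for Bt.22390.3.A1_at and 0.07 for SLC39A14 in CF against NC glands at 24 h, -0.02 for Bt.12610.1.A1_at in CFPD against NC glands at 24 h, and -0.26 for LBP and -0.10 for SLC39A14 in CFPD against CF glands over both times. Without a cow or an array, CF against NC glands at 24 h ranged from -1 to 2.18 for HP, -0.56 to 0.24 for Bt.12610.1.A1_at, -0.57 to 0.22 for Bt.22390.3.A1_at and -0.24 to 0.15 for SLC39A14. CFPD against NC glands at 24 h ranged from -0.24 to 0.56, -0.41 to 0.22 and -0.12 to 0.37 for the last 3. At 48 h CF against NC glands ranged from -0.27 to 1.11, -0.01 to 0.65 and -0.58 to 0.15 for these, and CFPD against NC glands from -0.48 to 0.25 for SLC39A14. SLC39A14 at 48 h also ranged from -0.59 to 0.22 in CNT against NC, -0.24 to 0.28 in CF against CNT and -0.27 to 0.42 in CFPD against CNT glands. The change of the challenge response between time points ranged from -1.33 to 0.50 for HP. Over both times CFPD against CF glands ranged from -0.32 to 1.27 for HP, -0.33 to 0.43 for LBP and -0.01 to 0.30 for SLC39A14, and treated against NC glands from -0.24 to 0.12 for SLC39A14. The cause was not tested. With 2 or 3 cows a time point, and 1 array a group left at 24 h without a cow, which was assumed to vary like the other groups, the arrays limit what could be called.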
